A study of Mus musculus with 28 samples.

Results

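The genes described here encode proteases that cut the extracellular matrix, proteases of the lysosome and inhibitors of these enzymes. They are the matrix metalloproteinase genes Mmp2, Mmp3 and Mmp14, the genes for tissue inhibitors of metalloproteinases Timp1, Timp2 and Timp3, the plasminogen activator genes Plau and Plat, and the cathepsin genes Ctsl and Ctsb. They were taken by name, as 10 of the 23951 gene symbols in the RNA files, and all 10 were found in every file. Of these, 9 had a mean of at least 1 FPKM (fragments mapped to a gene, scaled to transcript length and to the mapped fragments of the library) over the clones and entered the test, and Mmp3 did not.

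All 28 samples of the series come from NIH/3T3 Tet-On 3G cells, a mouse embryonic fibroblast line with a doxycycline-controlled transactivator. The series asks how loss of the histone variant H3.3 affects binding of the nucleosome remodelling and deacetylase complex (NuRD) and gene expression. Polyadenylated RNA was sequenced from 3 H3.3 knockdown clones, which carry the constructs OFP-H3.3A/GFP-H3.3B, and from 2 luciferase clones, which carry GFP-Luciferase/OFP-Luciferase and have the genotype wild type. The labels of both RNA groups also name culture with doxycycline. Chromatin immunoprecipitation with sequencing (ChIP-seq) of the NuRD subunits MTA1 and RBBP4 was done in knockdown cells and in luciferase cells with the same constructs, with 1 library per protein and condition. ChIP-seq of wild-type cells with no construct covered 6 NuRD subunits and 3 histone modifications, with 1 library each. HA-tagged H3.3 was mapped in 2 replicates from cells that carried the HA/FLAG-H3.3 construct, arrested with aphidicolin and given doxycycline. In the sequential ChIP, cells with the same construct and doxycycline were used, and chromatin taken with FLAG was taken again with an RBBP4 antibody. Each RNA library is 1 clone, so the p-values below measure the spread between these clones, and a difference between the groups cannot be told apart from differences between the clones that were picked.

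Matrix metalloproteinases are made as inactive precursors that cleave collagens and other matrix proteins once activated. MMP14 sits in the cell membrane, and together with TIMP2, which bridges the enzyme to its substrate, it activates the MMP2 precursor; at higher amounts the TIMPs block the active enzymes. The plasminogen activators PLAU (urokinase) and PLAT (tissue type) turn plasminogen into plasmin, which cuts matrix and can activate the MMP3 precursor. Cathepsins L and B are cysteine proteases of the lysosome that can also be secreted, and fibroblasts are a main source of most of these proteins in connective tissue.

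The promoters of 3 genes, Mmp3, Mmp14 and Timp2, are shown. Mmp3 was almost silent. In Mmp14 and Timp2 all knockdown clones lay above both luciferase clones, but neither gene passed the test. Each sequence is the 250 bases before the RefSeq start site, 5′ to 3′ on the gene's strand, on build GRCm38.p6. Capitals mark matches on both strands to 4 motifs. The AP-1 motif was searched as TGANTCA and the TATA box as TATAAA. For the GC box the letters were GGGCGG. The fourth motif was CCAAT, known as the CCAAT box. The positions below count back from the start site, with -1 as the last base shown.
Mmp3 promoter, chr9:7445572-7445821, plus strand: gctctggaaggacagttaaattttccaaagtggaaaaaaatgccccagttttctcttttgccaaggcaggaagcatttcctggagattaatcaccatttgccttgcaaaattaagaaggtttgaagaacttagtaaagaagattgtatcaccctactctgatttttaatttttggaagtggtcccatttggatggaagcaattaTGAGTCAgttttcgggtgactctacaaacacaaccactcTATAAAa
Mmp14 promoter, chr14:54431348-54431597, plus strand: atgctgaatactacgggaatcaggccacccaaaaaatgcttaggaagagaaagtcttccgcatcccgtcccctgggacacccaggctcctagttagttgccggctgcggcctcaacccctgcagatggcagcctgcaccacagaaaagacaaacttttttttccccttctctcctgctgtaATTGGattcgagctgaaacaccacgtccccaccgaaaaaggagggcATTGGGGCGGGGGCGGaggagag
Timp2 promoter, chr11:118355412-118355661, minus strand: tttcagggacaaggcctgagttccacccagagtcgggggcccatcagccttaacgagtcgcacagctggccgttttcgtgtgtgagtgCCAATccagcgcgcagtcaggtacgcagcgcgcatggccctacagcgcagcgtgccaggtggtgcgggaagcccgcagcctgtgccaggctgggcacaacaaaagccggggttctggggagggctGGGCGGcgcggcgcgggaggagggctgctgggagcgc
The Mmp3 promoter held 1 AP-1 match at -46 to -40 and 1 TATA match at -7 to -2, and 1 CpG. An AP-1 match was present in 6.75% and a TATA match in 12.4% of all 32841 promoters of the same length, whose median was 6 CpG with quartiles of 2 and 16. The Mmp14 promoter held 10 CpG, 2 adjoining GC boxes at -19 to -14 and -13 to -8, and 2 CCAAT matches on the opposite strand, of which the nearer, at -23 to -19, overlaps the first GC box by a base. The Timp2 promoter held 21 CpG, 1 GC box at -37 to -32 and 1 CCAAT match at -162 to -158. A GC box was present in 32.7% and a CCAAT box in 33.9% of all promoters. Timp1 had 6 CpG, 1 GC box and 1 CCAAT match, and Timp3 had 18 CpG and 1 GC box. A match describes the letters only. Entries were found for 6 of the 10 genes; Mmp2, Plau, Plat and Ctsb had none, and the Ctsl entry was not used because its start site lies 252 bases inside the RefSeq gene.

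The knockdown was checked first in the H3.3 genes themselves. H3f3a had 71.8, 35.6 and 5.05 FPKM in knockdown clones 1 to 3, against 128.3 and 143.5 FPKM in luciferase clones 1 and 2. H3f3b had 144.4, 104.3 and 51.7 FPKM in the knockdown clones, against 249.4 and 237.1 FPKM in the luciferase clones. Every knockdown clone was below both luciferase clones for both genes, and clone 1 kept the most RNA of each. The libraries held an estimated 18.2 to 26.5 M fragments in the knockdown clones and 25.2 to 25.9 M in the luciferase clones. Knockdown clone 1 stood apart from the other 4 libraries on the first principal component, with a score of -72.6 against -0.59 to 40.1, a component that held 39.1% of the variance; where a value rests on this clone, the value without it is given.

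Among the 9 genes tested, none passed limma at an adjusted p under 0.05, where 0.0341% of the 11728 genes tested did so (4 genes). At an unadjusted p under 0.05 there were 2, Ctsl and Timp2, and 9.81% of all genes tested were below that value. That count was 0 without luciferase clone 2, 1 without luciferase clone 1 and 3 without knockdown clone 2. In 4 of the 9 genes the values of the groups did not overlap, as in 32.6% of all genes tested. Mmp14 and Timp2 were above (11.4% of all genes tested), and Ctsl and Ctsb were below (21.2%). The median log2 difference of the 9 genes was -0.21, beside -0.10 over all genes tested, and 40.1% of all genes had a difference above 0. These are bulk samples, in which fewer cells that express a gene and less RNA per cell cannot be told apart.

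**Figure D1:**
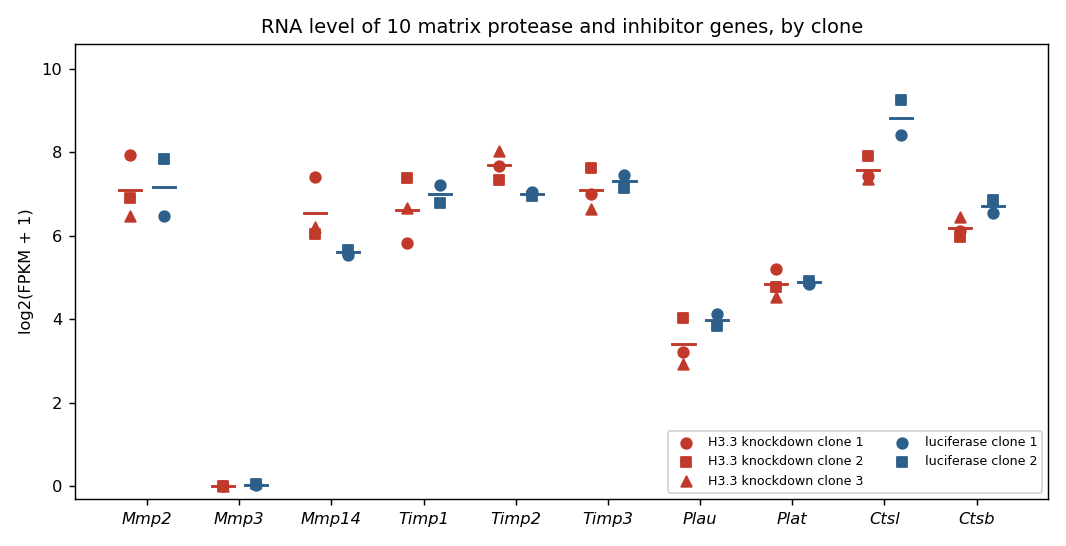
RNA level of each of the 10 genes as log2(FPKM + 1), with 3 H3.3 knockdown clones in red to the left of 2 luciferase clones in blue; horizontal lines are group means. The red points of Mmp14 and Timp2 lie above, and those of Ctsl and Ctsb below, both blue points of the same gene, and Mmp3 lies at or near 0 in every clone.

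The metalloproteinases did not move together. Mmp2 encodes gelatinase A, which cleaves denatured collagen and basement membrane collagen, and its locus is chr8:95351227-95377319 on mm9, the build of all coordinates below. Mmp2 had 246.4, 119.5 and 87.9 FPKM in knockdown clones 1 to 3, against 88.8 and 229.4 FPKM in luciferase clones 1 and 2. Knockdown clone 1 and luciferase clone 2 were high and the other 3 clones were low, so the groups overlapped. The log2 difference was -0.06 (SE 0.59; limma adjusted p = 0.974), and it ran from -0.74 to 0.62 when each clone was left out in turn. The 2 luciferase clones alone differed by 1.36 on the log2 scale, where the median gene differed by 0.26.

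Mmp14 encodes the membrane-bound activator of MMP2, at chr14:55050441-55060095. It had 169.1, 65.5 and 72.9 FPKM in knockdown clones 1 to 3, against 45.9 and 50.0 FPKM in luciferase clones 1 and 2. All 3 knockdown clones were above both luciferase clones, and clone 1 was far above the others. The knockdown mean was 102.5 ± 57.8 FPKM (SD, n = 3) and the luciferase mean 47.9 ± 2.89 FPKM (SD, n = 2), a ratio of 2.14. The log2 difference was 0.95 (SE 0.45; limma adjusted p = 0.520), and without knockdown clone 1 it was 0.52 (SE 0.20; limma adjusted p = 0.573).

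Mmp3 encodes stromelysin-1, a broad-range metalloproteinase that fibroblasts make when stimulated by cytokines, at chr9:7445822-7455974. It was listed at 0 in the 3 knockdown clones, against 0.0165 and 0.0330 FPKM in the luciferase clones. Those levels stand for an estimated 1 and 2 fragments, so no difference between the groups was detectable at this depth. It fell under the filter on low values and was not tested.

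The inhibitors also split. TIMP2 blocks metalloproteinases and takes part in activation of MMP2, and its gene lies on the minus strand at chr11:118162375-118216725. Timp2 had 205.1, 161.5 and 261.4 FPKM in knockdown clones 1 to 3, against 131.2 and 122.9 FPKM in luciferase clones 1 and 2. All knockdown clones were above both luciferase clones, and clone 3 was highest. The means were 209.3 ± 50.1 FPKM in knockdown clones (SD, n = 3) and 127.1 ± 5.87 FPKM in luciferase clones (SD, n = 2), a ratio of 1.65. The log2 difference was 0.69 (SE 0.26; limma unadjusted p = 0.0413, adjusted p = 0.494), and it stayed between 0.52 and 0.86 with any clone left out.

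Timp1 encodes a secreted inhibitor of many metalloproteinases, at chrX:20447292-20451863. It had 55.6, 167.8 and 101.2 FPKM in the knockdown clones, against 147.0 and 110.0 FPKM in the luciferase clones. The knockdown clones spanned the luciferase range, with clone 2 above it and clones 1 and 3 below it. Its log2 difference was -0.37 (SE 0.48; limma adjusted p = 0.764), and 0.035 without knockdown clone 1. Timp3 encodes an inhibitor that binds to the matrix, at chr10:85763157-85812250. Timp3 had 128.5, 198.2 and 99.5 FPKM in the knockdown clones, against 175.8 and 141.2 FPKM in the luciferase clones. Again knockdown clone 2 was above and clones 1 and 3 below both luciferase clones, and the log2 difference was -0.21 (SE 0.34; limma adjusted p = 0.816). Timp1 lies inside the Syn1 locus and Timp3 inside the Syn3 locus. The strand of the RNA libraries is not given in the sources used here, so reads of these overlapping loci cannot be assigned by strand. Whether the exons of the genes overlap was not examined. Syn1 was listed at 12.4, 18.3 and 18.4 FPKM in knockdown clones, against 13.2 and 15.9 FPKM in luciferase clones, and Syn3 at 1.61, 1.47 and 2.75 FPKM, against 1.14 and 1.80 FPKM, each below its Timp gene in every clone.

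The plasminogen activators were the 2 least abundant of the tested genes. Plau, the urokinase gene at chr14:21655884-21662610, had 8.35, 15.5 and 6.66 FPKM in knockdown clones 1 to 3, against 16.6 and 13.4 FPKM in luciferase clones 1 and 2. Knockdown clones 1 and 3 were below both luciferase clones and clone 2 lay between them. The log2 difference was -0.59 (SE 0.36; limma adjusted p = 0.570), with -0.91 without knockdown clone 2 and -0.36 without knockdown clone 3. Plat, the tissue-type activator gene at chr8:23868216-23893320, had 35.9, 26.6 and 22.0 FPKM in the knockdown clones, against 28.1 and 29.4 FPKM in the luciferase clones. The luciferase clones lay inside the knockdown range, and the log2 difference was -0.05 (SE 0.25; limma adjusted p = 0.937).

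The cathepsin genes Ctsl and Ctsb were lower in every knockdown clone than in both luciferase clones. Cathepsin L degrades proteins in the lysosome and is also known to trim the tail of histone H3 in differentiating mouse embryonic stem cells; its gene lies on the minus strand at chr13:64464522-64471614. Ctsl had 172.4, 242.5 and 165.2 FPKM in knockdown clones 1 to 3, against 342.4 and 608.1 FPKM in luciferase clones 1 and 2. The highest knockdown clone stayed below the lower luciferase clone, although the luciferase clones differed from each other by 0.83 on the log2 scale. The means were 193.4 ± 42.7 FPKM in knockdown clones (SD, n = 3) and 475.2 ± 187.9 FPKM in luciferase clones (SD, n = 2), a ratio of 0.407. The log2 difference was -1.26 (SE 0.33; limma unadjusted p = 0.0111, adjusted p = 0.447), the largest in size among the 9 genes. It was -0.84 without luciferase clone 2 and -1.67 without luciferase clone 1.

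Ctsb encodes cathepsin B, a lysosomal protease that also cleaves matrix when released, at chr14:63741299-63764760. Ctsb had 68.4, 61.9 and 86.8 FPKM in the knockdown clones, against 93.5 and 116.0 FPKM in the luciferase clones. The gap between the highest knockdown clone and the lower luciferase clone was small beside the spread inside each group. The means were 72.3 ± 12.9 FPKM in knockdown clones (SD, n = 3) and 104.7 ± 16.0 FPKM in luciferase clones (SD, n = 2), a ratio of 0.691, with a log2 difference of -0.53 (SE 0.23; limma adjusted p = 0.517).

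**Figure D2:**
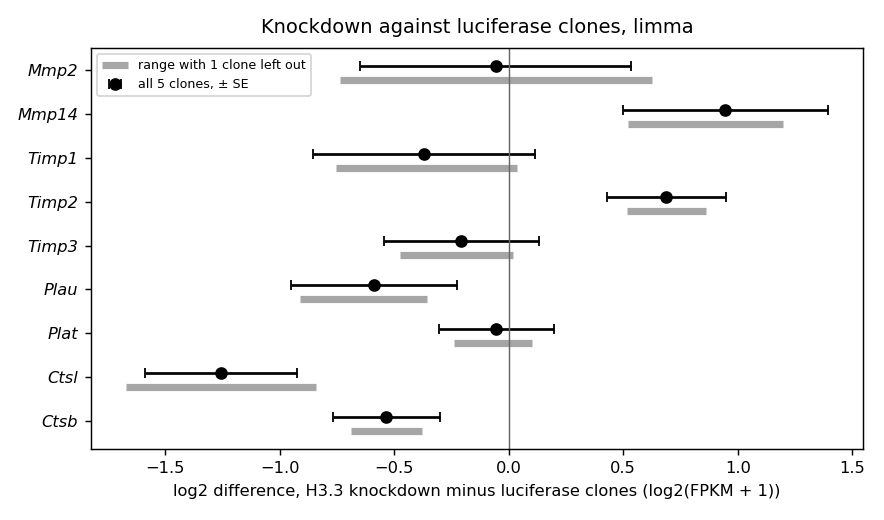
Log2 difference in log2(FPKM + 1), H3.3 knockdown minus luciferase clones, for the 9 genes tested, with the SE of limma (black) and the range of the value when each of the 5 clones is left out (grey). The grey ranges of Mmp14 and Timp2 stay above 0, those of Ctsl, Ctsb and Plau stay below 0, and those of Mmp2, Timp1, Timp3 and Plat reach both sides.

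By role, Ctsl and Ctsb summed to 240.8, 304.4 and 252.0 FPKM in knockdown clones 1 to 3, against 435.9 and 724.1 FPKM in luciferase clones 1 and 2. This sum had no overlap, which follows from each of these genes alone. The other listed cathepsins and legumain summed to 734.2, 464.1 and 488.0 FPKM in knockdown clones, against 387.3 and 699.0 FPKM in luciferase clones, with overlap. The metalloproteinases summed to 415.5, 185.0 and 160.8 FPKM in knockdown clones, against 134.7 and 279.4 FPKM in luciferase clones, and the inhibitors to 389.3, 527.5 and 462.1 FPKM, against 454.1 and 374.1 FPKM. Both of these sums overlapped between the groups. The plasminogen activators summed to 44.3, 42.1 and 28.7 FPKM in knockdown clones, against 44.7 and 42.8 FPKM in luciferase clones. The level of Mmp14 relative to that of its partner Timp2 was 0.824, 0.406 and 0.279 in knockdown clones, against 0.350 and 0.407 in luciferase clones, so it was high only in knockdown clone 1.

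FPKM is per transcript length, so levels can be ordered between genes. In knockdown clones the order of mean FPKM was Timp2, Ctsl (193.4), Mmp2 (151.3 ± 83.9, SD), Timp3 (142.1 ± 50.7), Timp1 (108.2 ± 56.4), Mmp14, Ctsb, Plat (28.2 ± 7.06) and Plau (10.2 ± 4.69). The clone values of each neighbouring pair overlapped down to Ctsb, and those of Ctsb, Plat and Plau did not. In luciferase clones the order was Ctsl, Mmp2 (159.1 ± 99.5), Timp3 (158.5 ± 24.5), Timp1 (128.5 ± 26.2), Timp2, Ctsb, Mmp14, Plat (28.8 ± 0.985) and Plau (14.98 ± 2.28). There Ctsl stood above Mmp2 without overlap, the neighbours from Mmp2 to Timp2 overlapped, and every step from Timp2 downwards was without overlap. Over all 5 clones Ctsl ranked 258 by mean FPKM among the 11728 genes tested, and Plau ranked 6138.

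For the 3 tested genes with the largest differences, the genes with the most similar profile over the 5 clones were found by the root mean square difference of centred log2(FPKM + 1). Nearest to Ctsl were Spidr (0.11) and Mir1291 (0.12), where the median over all genes was 0.71 and 10 genes were within 0.2. Nearest to Mmp14 were Cnpy2 and Mrvi1 (both 0.16), with 11 genes within 0.2 and a median of 0.76. Among the nearest to Timp2 was Emp3 (0.07), with 108 genes within 0.2 and a median of 0.52. The distance is not scaled to the size of a gene's differences, so these counts are not compared between the 3 genes.

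The other genes of these systems were read from lists of names. No gene of any of the 7 lists passed limma at an adjusted p under 0.05. Of 20 other matrix metalloproteinases, 3 were tested and 6 were listed at 0 in every clone. All 3 had differences above 0, with a median of 0.16; without knockdown clone 1, 2 were tested and both were below 0. Mmp9 (gelatinase B) had 12.9, 1.90 and 0.571 FPKM in knockdown clones, against 0.115 and 0.488 FPKM in luciferase clones, with most of it in knockdown clone 1 (log2 difference 1.63, SE 0.93; limma adjusted p = 0.558), and without that clone it fell under the filter on low values. Mmp19, the most abundant of the 3, had 15.2, 10.3 and 9.55 FPKM in knockdown clones, against 7.68 and 13.7 FPKM in luciferase clones.

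Of 16 tested ADAM, ADAMTS and tolloid proteases, 11 had differences above 0 and 5 below (median 0.18), and without knockdown clone 1 the numbers were 8 and 8 (median -0.03). Adam12, a membrane-anchored protease, had 4.31, 8.76 and 8.42 FPKM in knockdown clones, against 3.27 and 0.740 FPKM in luciferase clones, all above (log2 difference 1.53, SE 0.48; limma adjusted p = 0.468). Adamts2, which trims procollagen, was the most abundant, with 68.4, 61.3 and 41.7 FPKM in knockdown clones, against 42.5 and 69.1 FPKM in luciferase clones. Of 6 tested regulators of metalloproteinases, 4 were above 0 and 2 below (median 0.22). Furin, the convertase that activates the MMP14 precursor, had 27.5, 21.6 and 13.5 FPKM in knockdown clones, against 30.0 and 35.8 FPKM in luciferase clones, all below (log2 difference -0.68, SE 0.32; limma adjusted p = 0.520). Pcolce, an enhancer of procollagen processing, had 589.5, 449.3 and 518.7 FPKM in knockdown clones, against 350.9 and 425.3 FPKM in luciferase clones, all above (log2 difference 0.42, SE 0.22; limma adjusted p = 0.545).

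Of 6 other tested genes of the plasminogen system, 4 were above 0 and 2 below (median 0.16, and 0.42 without knockdown clone 1). Thbd, which encodes thrombomodulin, a cofactor that redirects thrombin to protein C, had 5.38, 10.1 and 8.79 FPKM in knockdown clones, against 50.8 and 41.9 FPKM in luciferase clones. All knockdown clones were far below both luciferase clones, with a log2 difference of -2.41 (SE 0.29; limma adjusted p = 0.219). Anxa2, part of a cell-surface receptor for plasminogen, was the most abundant, with 506.6, 869.6 and 1007.9 FPKM in knockdown clones, against 843.6 and 545.3 FPKM in luciferase clones, and the groups overlapped.

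Of 5 other tested cathepsins and legumain, 2 were above 0 and 3 below (median -0.04; 1 and 4, median -0.41, without knockdown clone 1), and none had groups without overlap. Ctsa had 119.1, 70.6 and 39.2 FPKM in knockdown clones, against 24.9 and 56.9 FPKM in luciferase clones, and Ctsd, the most abundant, 391.5, 240.2 and 336.0 FPKM, against 209.1 and 420.8 FPKM. Both tested cathepsin inhibitors had differences above 0. Cst3, which encodes the secreted inhibitor cystatin C, had 669.0, 339.0 and 472.4 FPKM in knockdown clones, against 299.6 and 368.3 FPKM in luciferase clones (log2 difference 0.51, SE 0.33; limma adjusted p = 0.581; 0.27 without knockdown clone 1), with overlap. AP-1 and ETS factors, known activators of several protease genes, had 2 of 11 differences above 0 and 9 below (median -0.35; 3 and 8, median -0.16, without knockdown clone 1). Etv4, an ETS factor, had 2.49, 12.6 and 15.4 FPKM in knockdown clones, against 52.8 and 33.3 FPKM in luciferase clones, all below (log2 difference -2.23, SE 0.72; limma adjusted p = 0.469). Jund, of highest mean over the 5 clones through knockdown clone 1, had 104.0, 41.7 and 36.2 FPKM in knockdown clones, against 35.4 and 35.9 FPKM in luciferase clones (log2 difference 0.59, and 0.12 without clone 1). Jun had 40.3, 41.6 and 52.8 FPKM in knockdown clones, against 56.3 and 41.9 FPKM in luciferase clones, and was above Jund in 3 of the 5 clones.

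**Figure D3:**
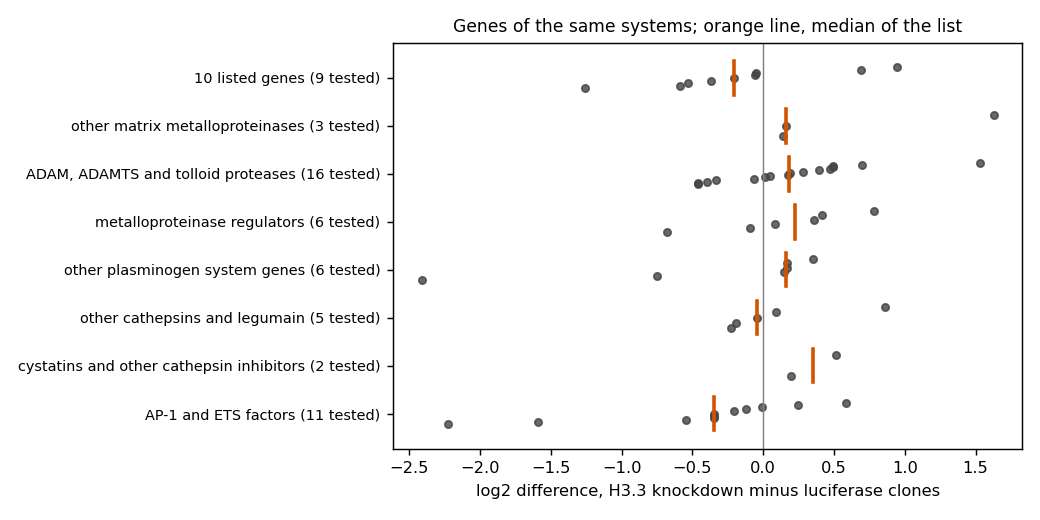
Log2 difference, H3.3 knockdown minus luciferase clones, of each tested gene (grey points) in the 10 listed genes and in 7 lists of related genes, with the median of each list in orange. The list medians lie between -0.35 and 0.35, and the points farthest left are Thbd at -2.41 and Etv4 at -2.23.

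The markers matched the label of a fibroblast line, and 11 of 12 fibroblast markers were tested. Their summed level was 8181 to 9742 FPKM in knockdown clones and 6529 to 7348 FPKM in luciferase clones. Of the 11, 6 had differences above 0 and 5 below (4 and 7 without knockdown clone 1), 5 had groups without overlap (32.6% of all genes tested) and none passed limma at an adjusted p under 0.05. S100a4, the gene of a calcium-binding protein and the most abundant of them, had 2470.6, 3336.6 and 3646.2 FPKM in knockdown clones, against 1541.3 and 1671.5 FPKM in luciferase clones, while the surface marker Thy1 had 153.8, 161.3 and 134.0 FPKM, against 163.2 and 187.7 FPKM. Macrophage markers summed to 12.8 to 20.3 FPKM in knockdown clones and 11.4 to 14.9 FPKM in luciferase clones. Tyrobp was listed at 0 throughout, while Cd14, Cd68 and Lyz2 were high enough to be tested. Cd14, the most abundant, had 5.91, 8.37 and 14.8 FPKM in knockdown clones, against 5.95 and 7.52 FPKM in luciferase clones. Endothelial markers summed to 1.62 to 10.9 FPKM in knockdown clones (1.62 to 3.44 without clone 1) and 4.85 to 8.76 FPKM in luciferase clones. Of these, Tek had 10.5, 3.14 and 0.586 FPKM in knockdown clones, against 0.902 and 1.34 FPKM in luciferase clones, and Cdh5 had 0.190, 0.170 and 0.495 FPKM, against 3.78 and 6.89 FPKM, without overlap. Epithelial markers summed to 0.703 to 6.55 FPKM in knockdown clones and 2.39 to 2.67 FPKM in luciferase clones, with Epcam at 0 throughout. Krt14, the most abundant of them, had 0.173, 1.17 and 5.81 FPKM in knockdown clones, against 1.64 and 1.28 FPKM in luciferase clones. The part of these marker levels in the values above was not tested.

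The chromatin data describe the same genes in cells without H3.3 knockdown, which for HA-H3.3 carried the tagged construct and were arrested. The deposited region table gives, for merged peak regions, a level as log2(RPKM + 1), where RPKM is reads scaled to region length and library size, in 11 libraries, and the fraction of the region covered by peaks of 8 of them, the 2 HA-H3.3 and 6 NuRD libraries. Within 2 kb of either end of a locus there were 35 such regions at 9 of the 10 genes, each with a peak in at least 1 of the 8 libraries. Mmp3 had no region and no peak in any list used here. With 1 library per antibody, other than HA-H3.3, no test was possible, and shares of genes are given beside each count.

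H3K4me3, a mark of active gene starts, had a peak at the start of all 9 other genes; 93.3% of expressed genes with a known strand had a peak at the start, and 92.0% of all expressed genes had a peak at either end. The authors' scores of these peaks, which rank peaks within a list, were 3100 for Mmp2, Mmp14, Timp2, Timp3, Ctsl and Ctsb, 3059 for Timp1, 2876 for Plat and 2288 for Plau. The genes at 3100 were tied, so the score does not order them. The least abundant of the 9 genes had the lowest score. The broadest of these peaks were at Ctsl (4273 bp), Ctsb (4106 bp) and Timp2 (4062 bp), and the narrowest at Plau (2368 bp). H3K4me3 peaks also reached the far-end windows of 2 genes, Timp1 and Ctsl (16.9% of expressed genes with a known strand). At Timp1 this was the start peak. At Ctsl it was a separate peak of 2203 bp with a score of 675, which no far-end region overlaps. H3K9ac, an acetylation mark of active starts, had a start peak at the same 9 genes (88.1% of expressed genes with a known strand; 86.6% of all at either end). H3K27ac, an acetylation mark of active promoters and enhancers, had a peak at 7 genes at either end, where 65.2% of expressed genes had one: 6 at the start (Mmp2, Mmp14, Timp2, Timp3, Plat and Ctsl; 65.5% of expressed genes with a known strand) and 3 at the far end (Timp3, Plau and Plat; 8.53%). Most of these H3K27ac peaks were weak, and with a score of at least 100 only 3 genes had one.

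**Figure D4:**
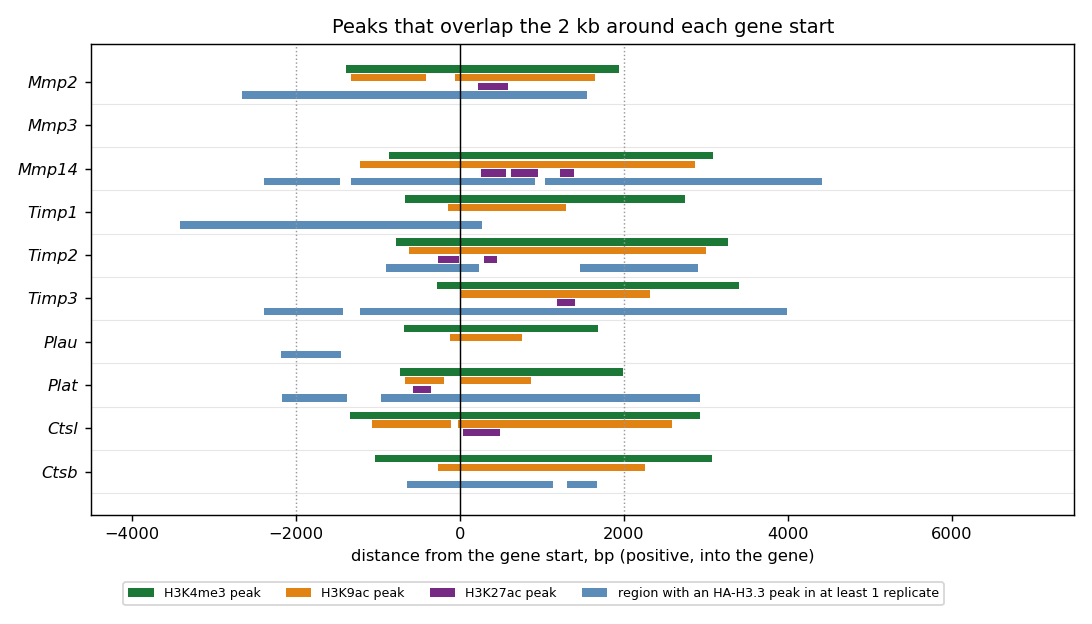
Position of histone modification peaks and of regions with an HA-H3.3 peak that overlap the 2 kb on either side of each gene start (dotted lines), as distance from the start in bp, positive into the gene. H3K4me3 and H3K9ac bars lie at 9 starts, Mmp3 has none, and Ctsl has no region with an HA-H3.3 peak.

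HA-H3.3 had a peak within 2 kb of either end at 9 genes in both replicates, where 76.0% (replicate 1) and 82.5% (replicate 2) of expressed genes had one. At the start itself it had a peak at 7 genes in replicate 1 (71.9% of expressed genes with a known strand) and at 8 in replicate 2 (76.0%). At the far end there were 6 genes in replicate 1 (27.4%) and 9 in replicate 2 (45.8%). Far-end H3.3 peaks were thus counted at 9 of 10 genes in replicate 2, while the deeper replicate 2 also gave more peaks over all genes. In replicate 1 the highest level of HA-H3.3 at a start was that of Mmp2, in a region of 4218 bp at chr8:95348566-95352783, with 3.15 in replicate 1 and 2.78 in replicate 2 on the log2(RPKM + 1) scale. The reads behind these levels numbered 452 and 456.

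Plat had 3.05 in replicate 1 and 2.95 in replicate 2 at its start, the highest start level of replicate 2, and its far end was as high. At Mmp14 the far end stood above the start in both replicates: the level at the start minus that at the far end was -1.04 in replicate 1 and -0.63 in replicate 2. Its far-end region at chr14:55060088-55063691 reached 3.13 (380 reads) and 3.10 (502 reads), and that window also holds an end of Mrpl52, so the region is not assigned to either gene. Ends of Lpcat2 and Fdft1 likewise lie in a window of Mmp2 and of Ctsb.

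Of the 9 genes with a region, only Ctsl had no HA-H3.3 peak at its start in either replicate, and Plau had none there in replicate 1. Among expressed genes with a known strand, 71.9% in replicate 1 and 76.0% in replicate 2 had such a peak, so its absence is common. The 758-bp region over the start, chr13:64471185-64471942, had no HA-H3.3 peak in either replicate, with 9 reads in replicate 1 and 11 reads in replicate 2. The same region was covered to 96.7% by RBBP4 peaks and to 29.6% by HDAC2 peaks, and held 297 reads of H3K4me3. An adjoining region of 146 bp was covered to 100% by a CHD4 peak, on 7 reads. It had no HA-H3.3 peak, with levels of 2.47 (9 reads) in replicate 1 and 2.55 (13 reads) in replicate 2. That short region sets the highest levels at Ctsl in most libraries, among them 2.64 for CHD4, on few reads (for CHD4, 5.23 RPKM with an exact 95% Poisson interval of 2.102 to 10.8 RPKM, which covers counting error only). HA-H3.3 peaks at Ctsl were found at the far end in both replicates. A region without an H3.3 peak must hold a NuRD peak by the way the table was made, so the low H3.3 reads and the NuRD cover at this start are not independent.

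RBBP4, a histone-binding subunit of NuRD that other complexes share, had a peak in unmodified cells at 8 genes, all but Mmp3 and Plau, where 79.4% of expressed genes had one. HDAC2, a deacetylase, had a peak at 7 genes (51.9%), and its partner HDAC1 at 3, Mmp14, Plat and Ctsb (31.5%). CHD4, the remodelling ATPase, had a peak at Mmp2 and Ctsl (11.2%). MBD2/3, which link the complex to DNA, and MTA1, a scaffold subunit, each had a peak at 1 gene, Plat (13.8% and 13.2%). Plat thus held peaks of 5 of the 6 subunits in its start region, chr8:23867258-23871148, but each covered a small part of it: 16.7% for RBBP4, 8.82% for HDAC1, 5.11% for HDAC2, 4.21% for MBD2/3 and 3.98% for MTA1. This region runs past the 2 kb window, so these peaks need not lie within 2 kb of the start. The share of expressed genes with peaks of as many subunits was not counted. Plau held no subunit peak.

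Levels were higher at the start than at the far end for the marks and for most subunits, a pattern that expressed genes shared. Their median for H3K4me3 was 4.17 at the start (7770 genes with a region) and 0.43 at the far end (4058 genes). For H3K9ac these medians were 2.24 and 0.91, for RBBP4 2.27 and 1.09, and for HDAC2 2.00 and 1.12. For HA-H3.3 they were 2.19 and 1.69 in replicate 1, and 2.20 and 2.22 in replicate 2. H3K4me3 was higher at the start in 9 of 9 genes, with a median difference of 2.51 in log2(RPKM + 1), and H3K9ac in 8 (median 1.26). RBBP4 and HDAC2 were each higher at the start in 8 genes (medians 0.85 and 0.76). HA-H3.3 was higher at the start in 7 genes in replicate 1 (median 0.43) and in 4 in replicate 2 (median -0.12), counts that include Ctsl through its 146-bp region. With the 758-bp region over its start, Ctsl had 0.91 in replicate 1 and 0.84 in replicate 2 at the start, against 2.04 and 2.48 at the far end. The counts were then 6 genes in replicate 1 (median 0.33) and 3 in replicate 2 (median -0.13). At the start, the median level of H3K4me3 in the 9 genes was 3.15, beside 4.17 in 7770 expressed genes with a region there, and that of HA-H3.3 was 2.47 and 2.53 in replicates 1 and 2 (2.45 and 2.48 with the 758-bp Ctsl region), beside 2.19 and 2.20. The regions follow H3.3 and NuRD peaks and need not span an H3K4me3 peak, as at Timp1, whose region holds only the first part of it. At Plau the only start region lies wholly before the H3K4me3 peak and holds 17 reads of this mark. Its level of 0.97, which the counts and medians above include, is therefore not that of the peak.

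**Figure D5:**
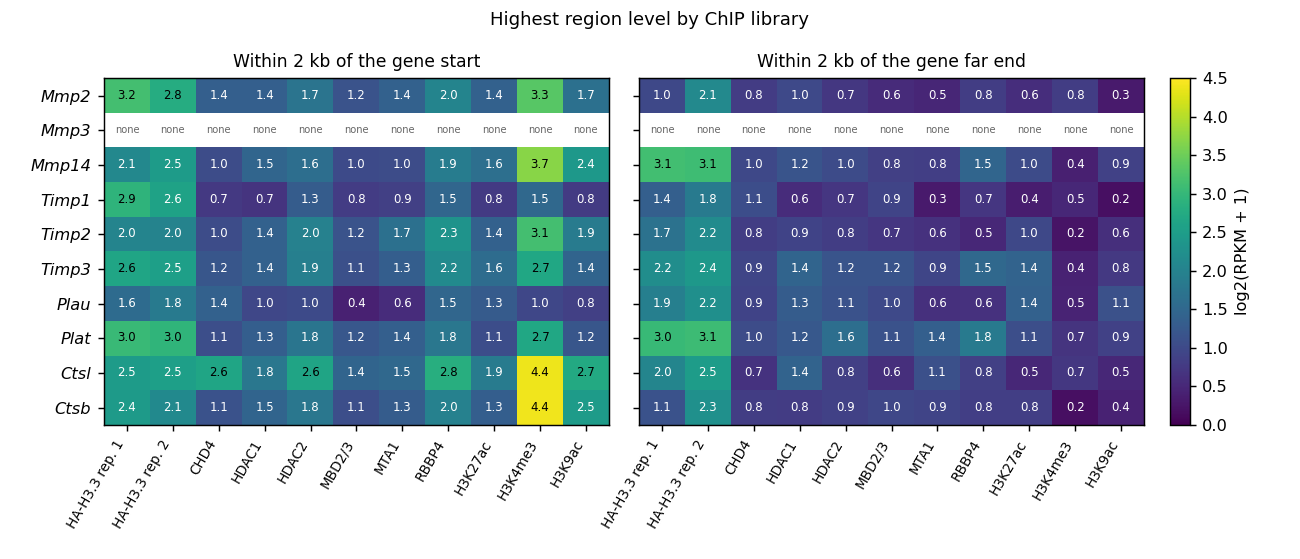
Highest region level, as log2(RPKM + 1), within 2 kb of the start (left) and of the far end (right) of each gene in the 11 libraries of the region table; "none" marks windows with no region. H3K4me3 is highest at the starts of Ctsl and Ctsb and low in the regions at every far end, while HA-H3.3 is at 3.1 at the far end of Mmp14 in both replicates.

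In knockdown and luciferase cells, no MTA1 or RBBP4 peak fell within 2 kb of either end of any of the 10 genes. The MTA1 lists held a peak there for 3.9% of expressed genes in knockdown cells and 3.67% in luciferase cells, and the RBBP4 lists for 16.1% in knockdown cells and 15.3% in luciferase cells. The lists themselves were short, with 904 MTA1 peaks in knockdown cells and 1703 in luciferase cells, and 2919 RBBP4 peaks in knockdown cells and 3561 in luciferase cells. A count of 0 of 10 in lists of this length says little about binding at these genes, and no change with H3.3 knockdown could be read there. The nearest peak to any locus was an MTA1 peak at Mmp2, 8.6 kb away in knockdown cells and 8.9 kb away in luciferase cells. The next were RBBP4 peaks at Plat, 25.0 kb away in knockdown cells and 50.9 kb away in luciferase cells, and an MTA1 peak 32.6 kb from Plau in knockdown cells. The sequential ChIP list held 6 peaks and none at these genes, as at all but 0.0686% of expressed genes.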

How the data were processed

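RNA values are FPKM per gene as deposited by the authors, in 1 table per clone whose header is that of a Cufflinks gene table; entries of a symbol were summed. The tables hold no counts, so fragments were estimated from the upper confidence bound. The tools named in the submitters' processing notes are TopHat, Bowtie, Cufflinks, Cuffdiff, MACS2 and bedtools, and the build is mm9; their roles, versions, library strand and input handling are not stated there. Region levels are log2 values as deposited: the header says RPKM, but only log2(RPKM + 1) gave whole reads, for 100% of values under 100 reads in every library within 0.05. Peak cover was deposited as a fraction per region. Peak lists carry the authors' score per peak, and the sequential list, made with MACS 2.1.1.20160309 per the file headers, a fold enrichment ratio. Coordinates are printed 1-based.

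Knockdown and luciferase clones were compared with limma 3.58.1 in R 4.3.3 (trend, two-sided, no block) on log2(FPKM + 1), with Benjamini-Hochberg adjustment over the 11728 genes that averaged 1 FPKM or more; the pseudocount understates changes of low genes. The procedure was tested on simulated data. Region libraries held 6.62 to 24.1 M reads and a median of 7 to 46 reads per region, a counting error (CV) of 37.8% to 14.7%. A window was 2 kb on either side of a locus end; any overlap with a peak or region counted, and the level of a gene is that of its highest region. Expressed genes are those with a mean of at least 1 FPKM; start and far end were separated where the RefSeq promoter table gave a strand, and from the region annotation for Mmp2, Plau, Plat and Ctsb. Promoters come from RefSeq GRCm38.p6, and locus lengths differed from the files by 1204 bases for Mmp14 and 1790 for Ctsl and by at most 39 for the others. Genes and lists were chosen with earlier results of these data known. Beside the 10 genes, the text names of each list the gene of smallest p and the gene of highest FPKM, the 2 most similar profiles of the 3 largest differences, and H3f3a and H3f3b as the check; some genes that this rule covers are not reported here. Clone numbers were not used as pairs. Alternatives were another pseudocount, other filters and scaling, a replicate block, each clone left out, other windows, a score limit and a length-weighted level. Input samples were not used here.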

Additional observations from a re-analysis of the deposited data

How the results depend on the processing

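No result of the 10 genes passed the test under any alternative: of 108 recomputed log2 differences 98 kept their direction, and the smallest adjusted p was 0.426 (Ctsl and Ctsb without knockdown clone 3). The differences near 0 changed sign. Plat was 0.088 after quantile normalization. With the clone number as a replicate block, Mmp2 was 0.26, Timp3 0.019 and Plat 0.10, and the genes past the test over the whole table numbered 0 in place of 4. The number only names a clone, and knockdown clone 3 adds nothing to the blocked difference. Across genes, deviations correlated at r = -0.25 for knockdown clone 1 with luciferase clone 1 and at -0.10 for the clones numbered 2. With 2 luciferase clones these values are mirrored for the other luciferase clone, at 0.25 for knockdown clone 1 and 0.10 for knockdown clone 2. They therefore cannot test a pairing. With 1 clone left out, Mmp2 ran from -0.74 to 0.62 (0.04 without knockdown clone 2, 0.26 without clone 3), Timp1 from -0.75 to 0.035, Timp3 from -0.47 to 0.019 and Plat from -0.24 to 0.10. The genes past the test over the whole table ranged from 8 (without knockdown clone 3) over 14, 18 and 28 to 30 (without luciferase clone 1). The genes of the 10 whose knockdown clones lay on 1 side ranged from 4 to 7 (7 of 9 tested without knockdown clone 2, where 42.3% of all genes tested did so); that share was 42.3% to 59.5% with a clone left out. At an unadjusted p under 0.05 there was 1 gene of the 10 under the replicate block. Among the listed genes without knockdown clone 1, an alternative chosen after seeing the data, Mmp19 was -0.049, Adamts2 -0.098 and Ctsd -0.062, each above 0 with all clones. Without a luciferase clone the lone one is assumed to vary like the knockdown clones. Of 55 peak counts, 53 stayed within 1.5 times; H3K27ac fell to 3 genes with scores of at least 100, and MBD2/3 had 2 at 5 kb. Levels stayed within their counting interval in 233 of 297 cases; 49 of the 64 others came from the length-weighted mean. The cause of these shifts was not tested. Depth limits Mmp3 and the short Ctsl region. The Ctsl start region and the shares with a clone left out were also examined after seeing the data.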

Other observations

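Mmp2 did not separate the groups, and its values gave an order of the clones, as those of any gene with distinct values do. The last places of this order were nearly tied, with 88.8 FPKM in luciferase clone 1 and 87.9 FPKM in knockdown clone 3. In Adam19, named below, luciferase clone 2 (25.5 FPKM) and knockdown clone 2 (25.2 FPKM) were nearly tied. Whether such an order would hold in other clones was not tested. From high to low its order was knockdown clone 1, luciferase clone 2, knockdown clone 2, luciferase clone 1 and knockdown clone 3, an order that 275 of the 11728 genes tested shared (2.34%) and that 224 had in reverse (1.91%). Listed genes with the same order were chosen here after their values were seen. Of the 11 fibroblast markers tested, Col3a1, Pdgfra and Dcn had this order and the others did not. It was also found in Adam19 and Adamts4, of 16 tested ADAM, ADAMTS and tolloid proteases. Ctso, of 5 other tested cathepsins and legumain, and Reck, of 6 tested regulators of metalloproteinases, had it too. Reck encodes a membrane-anchored inhibitor of metalloproteinases. Reck had 10.8, 3.81 and 1.38 FPKM in knockdown clones 1 to 3, against 3.04 and 6.45 FPKM in luciferase clones 1 and 2. Dcn, the gene of the collagen-binding proteoglycan decorin, had 200.5, 24.8 and 8.57 FPKM in knockdown clones, against 10.0 and 72.1 FPKM in luciferase clones. The reversed order was found in the AP-1 gene Fosl1, among others, with 1.96, 8.48 and 16.0 FPKM in knockdown clones, against 11.6 and 6.81 FPKM in luciferase clones. Both orders mix the groups, so the overlap of the groups in these genes follows from how the genes were chosen.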
